A study of Mus musculus with 54 samples.

Results

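Interferon-stimulated genes are the genes that cells switch on when an interferon binds its receptor. A list of 38 named members was followed in mouse naive CD4 T cells that lacked the signaling adaptor LAT, the surface receptors CD5 or CD6, or both CD5 and CD6. All 38 were found in the count tables of both experiments, where they stood among 27780 genes with at least 1 read in the LAT experiment and 32290 in the CD5 and CD6 experiment, of 55385 genes listed. For the LAT experiment, both the WT and the Lat-/- cells came from the same kind of mouse (Lat fl-dtr maT-Cre), in which a T cell-directed Cre deletes a floxed Lat allele and the loss of a human diphtheria toxin receptor marks the deleted cells, so that both populations were separated by flow cytometry and the WT cells also carried the floxed allele and the Cre. These are called sorted cells here. For the other experiment, cells of WT mice, of mice lacking CD5 (Cd5-/-) or CD6 (Cd6-/-) and of mice lacking both (Cd5-/-Cd6-/-, a single deletion that starts in Cd5 and ends in the neighbouring Cd6) were purified with a magnetic negative selection kit and are called enriched cells. All mice were C57BL/6, and lymph nodes and spleens were pooled. RNA was taken directly after purification (0 h), or after 4 h or 20 h on plate-bound anti-CD3 (3 µg/ml) with soluble anti-CD28 (1 µg/ml), with 3 libraries for each genotype and time (18 libraries of sorted and 36 of enriched cells). The study asked how far the transcriptional response to this stimulation depends on LAT, CD5 and CD6. No culture without the antibodies was analysed here, so stimulation and time in culture cannot be told apart.

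Interferons of type I (the alpha and beta interferons) signal through IFNAR1 and IFNAR2 to a complex with STAT2 and IRF9 that binds the interferon-stimulated response element, and interferon gamma signals through IFNGR1 and IFNGR2 to factors that bind the gamma-activated sequence. The induced proteins bind or degrade viral RNA (IFIT and OAS proteins), sense nucleic acids (RIG-I, encoded by Ddx58, and MDA5, encoded by Ifih1), conjugate the ubiquitin-like protein ISG15, or act on membranes of pathogen vacuoles (guanylate-binding proteins and immunity-related GTPases). Naive T cells are known to hold a low constitutive level of many of them, and the guanylate-binding proteins and immunity-related GTPases are known as strong targets of interferon gamma.

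Promoter sequence (RefSeq, GRCm38.p6, from 250 bases before to 50 bases after the annotated start) was at hand for 29 of the 38 members. It was searched on both strands for a core of the response element, GAAANNGAAA, and for a core of the gamma-activated sequence, TTCNNNGAA. The matches below were chosen because they belong to the genes whose values the following results turn on. Further matches of these genes, a response element core in Ifit3 and gamma-activated cores in Oas1a and Gbp7, are not printed. Matched letters are in capitals, both motifs included, and a response element core on the opposite strand reads TTTCNNTTTC.
Ifit1, chr19:34640785-34640813, plus strand: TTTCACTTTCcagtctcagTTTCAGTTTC
Ifit3, chr19:34583366-34583389, plus strand: tggtaagTTTCACTTTCctcttct
Isg15, chr4:156200871-156200900, minus strand: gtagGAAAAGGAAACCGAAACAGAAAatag
Oas1a, chr5:120907523-120907552, minus strand: ttctcggGAAATGGAAACTGAAAatctact
Rsad2, chr12:26456556-26456579, minus strand: gtccaacTTTCATTTTCagaaaac
Stat2, chr10:128270269-128270292, plus strand: accctggTTTCAGTTTCctttccc
Gbp2, chr3:142620597-142620620, plus strand: cttttagTTTCACTTTCactgtct
Gbp3, chr3:142559992-142560021, plus strand: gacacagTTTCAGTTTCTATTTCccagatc
Gbp7, chr3:142530276-142530299, plus strand: tgtgcagTTTCAGTTTCagttctc
Igtp, chr11:58199507-58199535, plus strand: ccatTTCTAGGAActGAAACTGAAAgctg
Irgm1, chr11:48871428-48871457, minus strand: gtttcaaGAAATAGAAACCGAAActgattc
Irgm2, chr11:58214898-58214926, plus strand: ccatTTCCAGGAActGAAACTGAAAgctg
Bst2, chr8:71537583-71537612, minus strand: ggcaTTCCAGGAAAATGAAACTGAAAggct

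The response element core was found in the promoters of 17 of the 29 members (58.6%), against 3.99% of all 27025 genes with a promoter in the table. When a spacing of 1 base was also accepted, 20 of 29 members (69%) held it, against 7.27% of genes. The gamma-activated core was found in 10 of 29 (34.5%), against 9.55% of genes. The 6 GTPase genes with a promoter in the table all held the response element core, and 3 of them (Gbp7, Igtp and Irgm2) held the gamma-activated core as well. The annotated spans of Igtp and Irgm2 overlap on the plus strand of chromosome 11. In both genes the gamma-activated core lies 2 bases before the response element core, as printed above. In Bst2 the gamma-activated core overlaps the response element core. Both cores were found in 6 members (Oas1a, Eif2ak2, Gbp7, Igtp, Irgm2 and Bst2), the response element core alone in 11 (Ifit1, Ifit3, Isg15, Oas3, Ifih1, Ddx58, Rsad2, Gbp2, Gbp3, Irgm1 and Stat2), the gamma-activated core alone in 4 (Ifit2, Isg20, Samhd1 and Ifi35) and neither in 8 (Herc6, Trim25, Oasl1, Oasl2, Cmpk2, Dtx3l, Ifi44 and Xaf1). These matches are descriptions of letters in a window of fixed length.

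Before the members are described, 4 facts of the libraries matter for them. Library totals ran from 17784644 to 28501095 counts in sorted and from 20554354 to 45222554 in enriched cells, so that 3 counts, taken here as the limit of detection, equal 0.105 to 0.176 CPM (the count of a gene scaled to a fixed library total after TMM scaling) in sorted and 0.0631 to 0.136 CPM in enriched cells. The targeted Lat transcript stood at 5.69 to 19.1 CPM in the 9 Lat-/- libraries and at 92.2 to 351 CPM in WT. Cd5 was at 129, 719 and 105 CPM in the 0 h libraries labelled Cd5-/- and at 724, 172 and 719 CPM in those labelled Cd6-/-, so the library numbered 2 in each of these groups goes against its label; both were used as labelled. The 8 markers of naive CD4 T cells summed to at least 3172 CPM in every library, while B cell markers summed to 0.579 to 4.87 CPM in sorted cells and to 68.2 to 596 CPM in enriched cells at 0 h and 1.3 to 4.82 CPM at 20 h, and myeloid markers to 0.248 to 5.7 CPM in sorted cells and to 50.1 to 389 CPM in enriched cells at 0 h and 1.72 to 3.61 CPM at 20 h.

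In resting sorted WT cells, the members ranged over more than 3 orders of magnitude per exon length. Ifi27l2a stood highest at 802 RPKM (CPM per kilobase of exon), followed by the GTPase Igtp at 140.4 and the tethering protein gene Bst2 at 123 RPKM. Samhd1, a dNTP-degrading enzyme, was at 70.9, Isg15 at 66.9 and Gbp2 at 50.7 RPKM. Lowest were Rsad2 (2.05 RPKM), Ifi44 (0.778 RPKM) and Mx1 (0.369 RPKM). Enriched WT cells had the same 3 genes at the top, with Ifi27l2a at 793, Igtp at 115 and Bst2 at 107 RPKM.

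Stimulation of sorted WT cells was followed by a fall of most members. A gene was called when it differed more than 2-fold with an adjusted p under 0.05 (edgeR's quasi-likelihood test, Benjamini-Hochberg adjustment over all genes tested). At 4 h, 33 of 38 members were called lower, against 9.29% of all genes, with a median log2 fold change of -2.05 over the members and 0 over all genes. At 20 h, 31 were called lower, against 12.7% of all genes, with a median of -3.23. None was called higher at either time by edgeR, against 8.05% of all genes at 4 h and 10.8% at 20 h. With the fold threshold left out, 37 were lower and 0 higher at 4 h, and 35 were lower and 1 higher, Gbp2, at 20 h. Of all 27780 genes, 8048 at 4 h and 9638 at 20 h passed without the fold threshold, in either direction. A total of 29 members were lower at both times. For this and later counts that join several comparisons, the share over all genes was not computed. Bulk RNA cannot tell fewer cells expressing a gene from less RNA per cell, and CPM are shares of a library whose other transcripts also change.

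The genes of the IFIT and ISG15 proteins fell by 4 h, and the time at which they reached their lowest level differed. Ifit1 (chr19:34640871-34650009, GRCm38), whose product binds uncapped viral RNA, was at 49.5, 54.7 and 45.6 CPM in the 3 WT libraries at 0 h, at 2.06, 3.67 and 2.68 CPM at 4 h and at 3.08, 3.91 and 1.72 CPM at 20 h. The 0 h libraries lay above all stimulated ones, and the log2 fold change was -4.15 (SE 0.21, adjusted p = 6.81e-85) at 4 h and -4.09 (SE 0.21, adjusted p = 7.49e-84) at 20 h. Ifit3, also on chromosome 19, was at 14.7, 21.4 and 14.5 CPM at 0 h, 1.12, 1.42 and 1.32 CPM at 4 h and 0.556, 0.627 and 0.839 CPM at 20 h and fell likewise without overlap. Isg15 (chr4:156199455-156200796) fell in 2 steps, from 40.8, 62.2 and 38.2 CPM to 5.84, 8.48 and 11.2 CPM at 4 h and 1.11, 2.14 and 1.46 CPM at 20 h, without overlap between the times. Its log2 fold change was -2.46 at 4 h and -4.89 at 20 h. Usp18, the protease that removes ISG15 and also restrains the type I receptor, was at 39.1, 50.0 and 37.5 CPM at 0 h, 2.8, 2.34 and 4.04 CPM at 4 h and 3.42, 3.47 and 3.76 CPM at 20 h. It had fallen without overlap by 4 h (log2 -3.77) and was not lower still at 20 h (-3.57). The ISG15 ligase gene Herc6 fell too, at -2.51 and -1.66, whereas Trim25, a ubiquitin ligase that acts on RIG-I, was not called at either time (-0.01 and -0.46).

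All 5 members of the OAS family, named for making the 2'-5' oligoadenylates that activate RNase L, were called lower at both times. Oasl2 (chr5:114896936-114912234) was at 16.8, 22.8 and 17.5 CPM at 0 h, at 1.82, 2.34 and 3.55 CPM at 4 h and at 0.257, 0.111 and 0.707 CPM at 20 h, and its log2 change at 20 h was -5.76 (SE 0.27, adjusted p = 2.2e-96). Each time lay below the one before it in all 3 libraries. Between 4 h and 20 h, 11 members fell further, against 9.32% of all genes, and 2 rose (Gbp2 and Gbp3), against 7.9% of all genes. Oas2, which makes the oligoadenylates, had 395, 257 and 263 reads at 0 h, 14, 14 and 18 reads at 4 h and 1, 5 and 3 reads at 20 h. Among the 11 were 4 of the 5 OAS genes, with Oas1a at -3.58, and Ddx58 at -1.93. Rsad2, which encodes the radical enzyme viperin, had 243, 218 and 232 reads at 0 h, 11, 23 and 40 reads at 4 h and 0, 2 and 2 reads at 20 h, so its level at 20 h was under the limit of 3 counts in every library. Its neighbour Cmpk2, a nucleotide kinase gene, was called lower at -4.44 and -5.20. Mx1, a dynamin-like GTPase gene, was barely expressed at 0 h (54, 23 and 32 reads) and had at most 3 reads in any WT library after it.

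The nucleic acid sensors fell by different amounts. Ddx58 was at log2 -2.08 and -4.01, Dhx58 (LGP2) at -2.82 and -3.71, and Zbp1, a sensor of Z-form nucleic acid, at -3.18 and -3.10. Ifih1 was called at 20 h (-1.66) and not at 4 h (-0.95), and Eif2ak2, the kinase PKR, had the smallest called changes of these sensors (-1.70 and -1.05). Parp14 was at 194, 159 and 184 CPM at 0 h, 55.9, 55.5 and 57.3 CPM at 4 h and 52.8, 50.1 and 40.3 CPM at 20 h, with no overlap between 0 h and the stimulated libraries. Parp9, Parp14 and Dtx3l, which act in ADP-ribosylation, fell together, between -1.67 and -1.85 at 4 h and between -1.60 and -1.91 at 20 h on the log2 scale. Stat2, the STAT of the type I interferon complex, fell from 59.1, 47.7 and 44.5 CPM to 11.3, 10.3 and 19 CPM at 4 h and 7.87, 8.92 and 7.95 CPM at 20 h. Isg20, an exonuclease gene, was at 32, 40.3 and 31.2 CPM at 0 h, 12.7, 10.9 and 8.6 CPM at 4 h and 3.08, 3.1 and 2.92 CPM at 20 h, each time below the one before, whereas Bst2, whose product tethers budding viruses, was at 94.3, 156 and 83.6 CPM at 0 h, 46.9, 36.2 and 42 CPM at 4 h and 74.8, 79.7 and 82.8 CPM at 20 h, lowest at 4 h. Samhd1 was likewise lowest at 4 h, at 659, 609 and 679 CPM at 0 h, 194, 209.9 and 301 CPM at 4 h and 422, 424 and 356 CPM at 20 h. Ifi27l2a, the member with the highest level per length, was at 332, 472 and 309 CPM at 0 h, 110.2, 125 and 199.7 CPM at 4 h and 85.8, 101 and 74.5 CPM at 20 h and was called lower at both times (-1.36 and -2.09). Ifi35 was not called at any time (-0.67 and -0.55).

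The guanylate-binding and immunity-related GTPases were less uniform. Gbp2 (chr3:142620602-142638008) was at 113, 156 and 113 CPM at 0 h, at 63.7, 46.1 and 91.2 CPM at 4 h and at 204, 259 and 252 CPM at 20 h. Its libraries were lower at 4 h and higher at 20 h than at 0 h without overlap, but neither change passed the fold threshold (log2 -0.93 and 0.90), and the rise from 4 h to 20 h did, at 1.83 (SE 0.15, adjusted p = 2e-31). Igtp was at 250.4, 330.3 and 271 CPM at 0 h, 133, 83.8 and 189 CPM at 4 h and 252, 255 and 289.7 CPM at 20 h, low at 4 h and back in the 0 h range at 20 h. Gbp3 and Igtp were called lower at 4 h (-1.10 and -1.07) and stood at 0.02 and -0.10 at 20 h, not called. Gbp7, in contrast, was called lower at both times, at -2.02 and -3.36. Irgm1 was called lower at both times (-1.07 and -1.57) and Irgm2 at 20 h only by this threshold (-0.40 and -1.12). Members of the IFIT, OAS, guanylate-binding protein and immunity-related GTPase families resemble each other in sequence, and the annotated spans of Igtp and Irgm2 overlap. How reads matching several genes were counted is not given in the sources used here, so the split of reads within a family is uncertain.

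**Figure D1:**
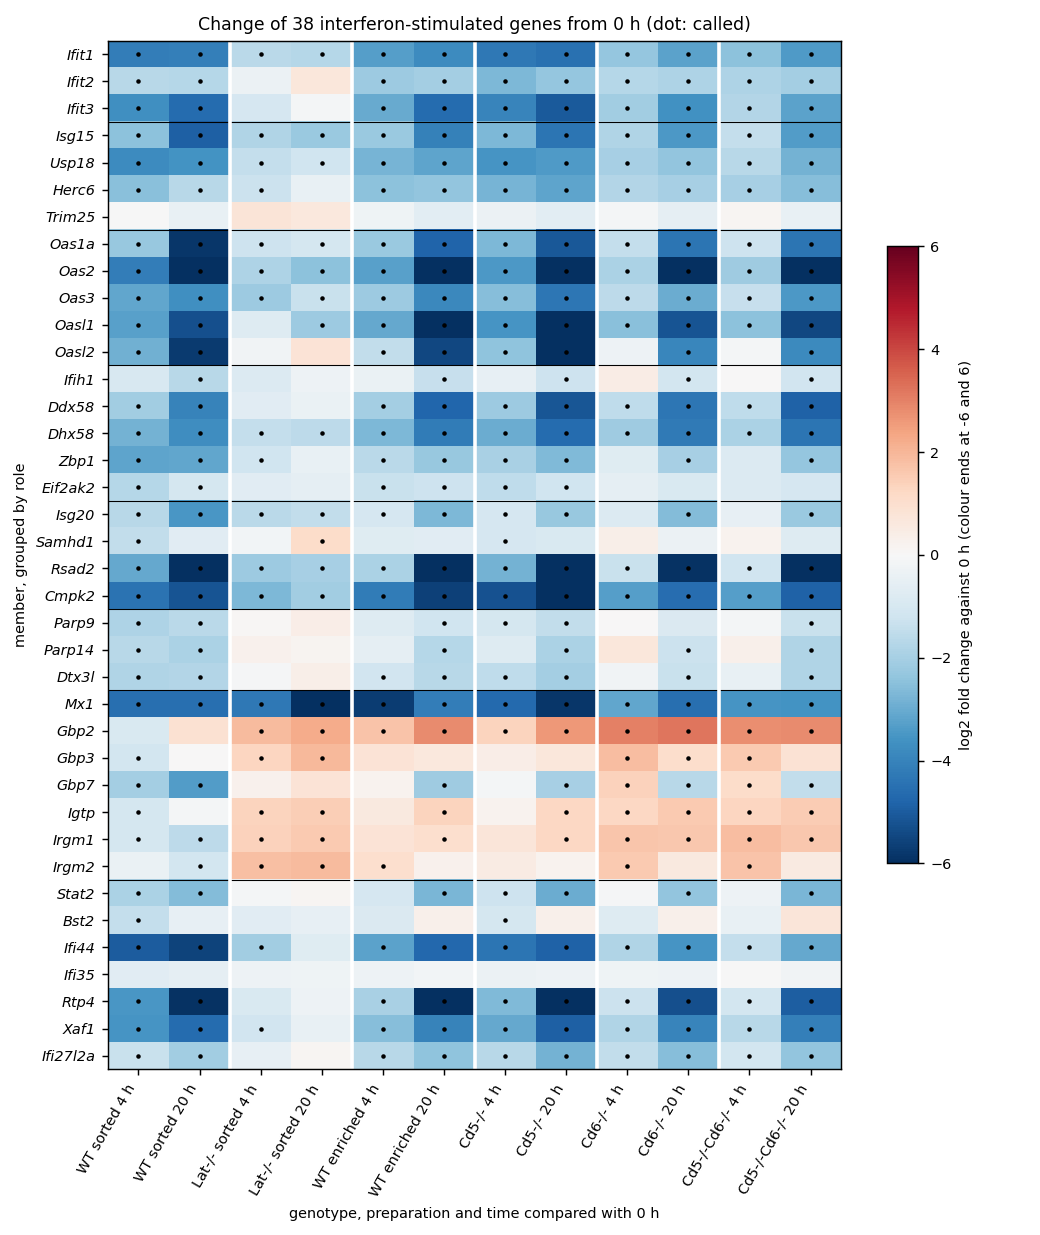
Log2 fold change against 0 h of the 38 members (vertical axis, grouped by role) for each genotype, preparation and time (horizontal axis), with 3 libraries per group; blue is lower, red is higher, and a dot marks a called change. Blue fills the WT columns outside the GTPases, 33 and 31 members being called lower in sorted WT cells, and the sorted Lat-/- columns are paler, with 15 and 12 called lower; Mx1 was at or under the limit of 3 counts in most libraries after 0 h, so its colours depend on the fit.

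Fewer members fell on stimulation in Lat-/- cells, and some GTPases rose. At 0 h, before stimulation, 0 of 38 members were called between Lat-/- and WT cells by edgeR or DESeq2, against 0.961% of all genes, and 10 had an unadjusted p under 0.05. Of all 27780 genes, 1693 had an unadjusted p under 0.05. By adjusted p without the fold threshold, Igtp (0.59) and Irgm2 (0.75) were higher in Lat-/- cells, against 443 of 27780 genes in either direction. Between 0 h and 4 h, 15 members were called lower in Lat-/- cells, against 3.62% of all genes, and 5 higher, against 3.08%. Between 0 h and 20 h, 12 were called lower, against 2.07%, and 6 higher, against 2.14%. The median log2 fold change over the members was -0.73 at 4 h and -0.33 at 20 h, and it was also -0.33 with Mx1, at 0 reads in all Lat-/- libraries at 20 h, set to its limit of detection.

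At 4 h, 27 members were called higher in Lat-/- than in WT cells and 0 lower, against 5.51% of all genes called higher, with a median log2 difference of 1.93. At 20 h, 33 were called higher and 0 lower, against 12.1% of all genes called higher, with a median of 2.58, and 27 were called at both times. The 5 not called at 20 h were Trim25, Eif2ak2, Bst2, Ifi35 and Mx1. The change from 0 h itself differed between the genotypes, by the interaction of genotype and time, for 28 members at 4 h, against 4.37% of all genes, and for 34 at 20 h, against 10.1% of all genes, all in the direction of a smaller fall or a larger rise in Lat-/- cells.

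**Figure D2:**
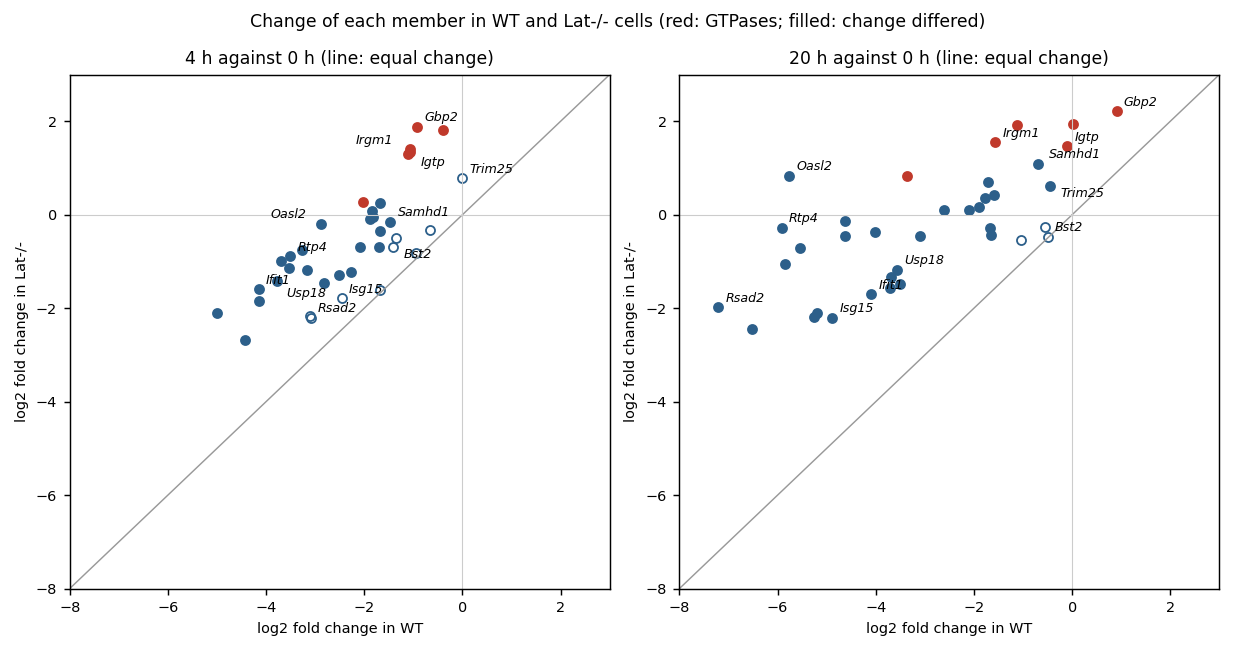
Log2 fold change from 0 h in WT (horizontal axis) and in Lat-/- cells (vertical axis) for 37 members at 4 h (left) and 20 h (right), each from 3 libraries per group; red marks GTPases, filled points mark members whose change differed between genotypes, and the diagonal marks equal change. All 37 points lie above the diagonal at both times, with Oasl2 at -5.76 in WT and 0.83 in Lat-/- cells at 20 h; Mx1 is not drawn because its levels after 0 h were at or under the limit of 3 counts.

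The members split by how far they were held in Lat-/- cells. Oasl2 in Lat-/- cells was at 24.5, 31.9 and 21.9 CPM at 0 h, 24, 17.5 and 27.1 CPM at 4 h and 76.8, 13.5 and 49.4 CPM at 20 h. Every stimulated Lat-/- library lay above every stimulated WT library of the same time, and the log2 difference from WT at 20 h was 7.05 (SE 0.28, adjusted p = 2.16e-141). Rtp4, a receptor-transporting protein gene, was at 46.9, 69.7 and 43.7 CPM in WT at 0 h, and at 0.77, 0.811 and 1.06 CPM in WT and 63.7, 17 and 55.7 CPM in Lat-/- cells at 20 h, a log2 difference of 5.68 (SE 0.23, adjusted p = 8.22e-134), and its change from 0 h differed by 5.64. Ifit3 was at 22.1, 19.6 and 15 CPM at 0 h and 25.3, 7.98 and 18.5 CPM at 20 h in Lat-/- cells, where its change was not called (-0.13), against -4.64 in WT. Stat2, Parp9, Parp14 and Dtx3l also stayed without a call at both times in Lat-/- cells, and each differed from WT by 1.90 to 2.16 at 4 h and by 2.11 to 2.82 at 20 h on the log2 scale.

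Another 11 members, among them Ifit1, Isg15, Usp18, Oas1a, Oas2, Oas3, Dhx58 and Rsad2, were called lower at both times in Lat-/- cells also. Ifit1 in Lat-/- cells was at 53.4, 59.2 and 46.1 CPM at 0 h, 23.5, 14.3 and 14.3 CPM at 4 h and 21.8, 8.46 and 18.8 CPM at 20 h. These values fell below 0 h without overlap (log2 -1.60 and -1.70), and stood above the WT values of the same times without overlap. Isg15 was called lower in both genotypes at 4 h, at -2.46 in WT and -1.78 in Lat-/- cells, and the difference between these changes, 0.68 (SE 0.26, adjusted p = 0.0597), did not pass the test. By 20 h it differed, at 2.68 (SE 0.28, adjusted p = 1.08e-19), with 11.4, 6.68 and 11.9 CPM in Lat-/- cells. Isg20 showed the same order, with a difference of the changes of 0.08 at 4 h, not called, and 2.02 at 20 h. For Rsad2 the reads at 20 h were 53, 28 and 50 in Lat-/- cells against 0, 2 and 2 in WT. Mx1 had at most 3 reads in any library of either genotype after 0 h.

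**Figure D3:**
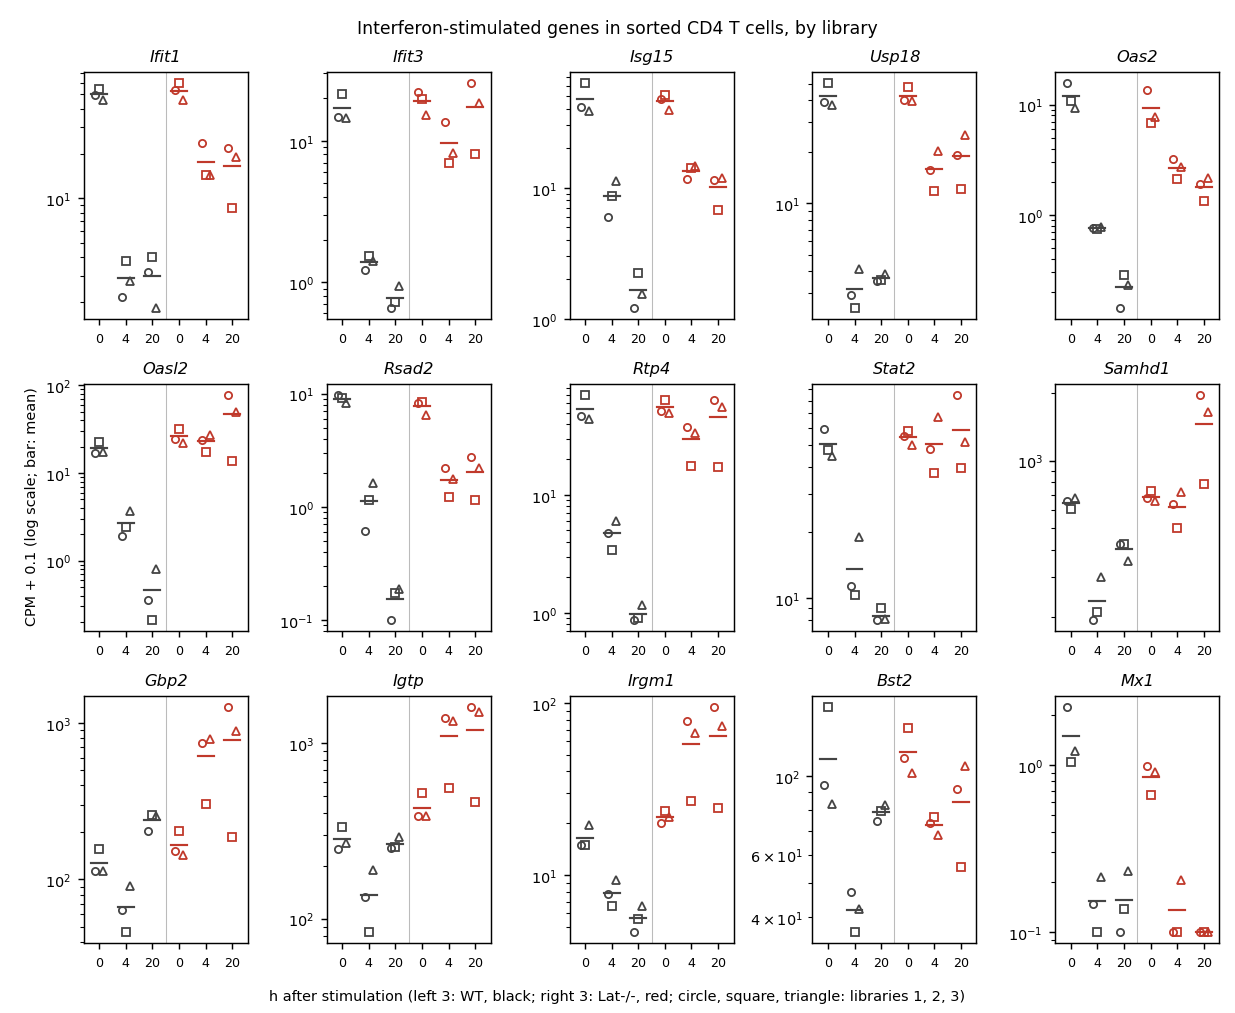
Level of 15 members in each library of sorted cells (CPM + 0.1, log scale) by h after stimulation, WT in black on the left and Lat-/- in red on the right; circles, squares and triangles are libraries 1, 2 and 3 and bars are means of 3. Oasl2 and Rtp4 fall in WT cells and were not called against 0 h in Lat-/- cells, Gbp2, Igtp and Irgm1 rise in Lat-/- cells, and the Lat-/- library numbered 2 (square) lies lowest for many genes at 4 h and 20 h, as with Gbp2 at 187 CPM at 20 h.

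In Lat-/- cells 5 GTPases rose on stimulation, at 4 h and at 20 h. In sorted WT cells none was called higher than at 0 h, and Gbp2 at 20 h missed the fold threshold only. Gbp2 reached 745, 303 and 793 CPM at 4 h and 1252, 187 and 885 CPM at 20 h from 152, 204 and 144 CPM at 0 h, with log2 fold changes of 1.88 (SE 0.15, adjusted p = 1.19e-32) and 2.22 (SE 0.15, adjusted p = 4.87e-44). Library 2 was the lowest at both times and at 20 h fell below the 0 h library of the same number and below all 3 WT libraries. Igtp, an immunity-related GTPase gene of chromosome 11, was at 1384, 555 and 1342 CPM at 4 h and 1593, 463 and 1500.0 CPM at 20 h, against 382, 521 and 383 CPM at 0 h. Library 2 of Igtp at 20 h was thus also below the 0 h library of the same number. Gbp3, Irgm1 and Irgm2 were called higher too, at 1.31, 1.40 and 1.80 at 4 h and at 1.94, 1.56 and 1.92 at 20 h on the log2 scale. Irgm1 was at 20.0, 23.6 and 21.6 CPM at 0 h and 94.1, 24.6 and 73.7 CPM at 20 h in Lat-/- cells, against 14.9, 15 and 19.3 CPM and 4.58, 5.49 and 6.54 CPM in WT. Gbp7 was not called in Lat-/- cells (0.26 and 0.83), and its difference from WT at 20 h, 4.55 (SE 0.18, adjusted p = 6.64e-135), set 0.83 against -3.36 from 0 h. Samhd1 was the sixth member called higher at 20 h in Lat-/- cells (1.09), at 1956, 788 and 1642 CPM.

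Ifng, which encodes interferon gamma, was also higher in Lat-/- than in WT cells, by 3.04 at 4 h and 3.03 at 20 h on the log2 scale. It was at 13.5, 1.94 and 5.77 CPM at 4 h and 2.63, 0.297 and 3.24 CPM at 20 h in Lat-/- libraries 1, 2 and 3, against 0.841, 0.962 and 0.792 CPM and 0.257, 0.295 and 0.177 CPM in WT. Library 2 was the lowest of the Lat-/- libraries for Ifng, and for 30 of the 38 members at 4 h and 35 at 20 h, against 3 at 0 h. The counts at 4 h and 20 h include Mx1, tied at 0 reads in libraries 1 and 2 at 4 h and in all 3 at 20 h. The summed NK cell markers were 4.97, 1.82 and 7.13 CPM at 4 h and 5.06, 2.75 and 8.45 CPM at 20 h in the same libraries, against 9.77, 6.43 and 14.8 CPM at 0 h, and the 5 markers together reached 34.3 CPM at most in sorted cells. In WT libraries 1, 2 and 3 the NK cell markers summed to 27.0, 34.3 and 8.89 CPM at 0 h. They summed to 11.6, 11.1 and 3.36 CPM at 4 h and 15.9, 15.9 and 14.4 CPM at 20 h there. The part of these cells or of Ifng in the members' levels was not tested. Without both Lat-/- libraries numbered 2 (an alternative chosen after the data were seen), 29 members were called higher than WT at 4 h and 33 at 20 h, against 11.6% and 22.8% of all genes called in either direction, and 8 rose and 10 fell from 0 h to 20 h in Lat-/- cells, against 3.59%. The log2 fold change of Gbp2 at 20 h was 2.68 and that of Oasl2 was 1.27, now called.

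The genes of the pathway that leads to the members were taken from lists written together with the members. Of 21 interferon genes, 17 had no read in any library of sorted cells, Ifnb1 and each listed gene named Ifna with a number included, and the 3 others apart from Ifng had 17 reads in all 18 libraries together. In enriched cells 13 of 21 had no read, and the 7 others apart from Ifng had 42 reads in 36 libraries, with at most 5 in any library. Because the counting of reads that match several genes is not given, a gene without reads need not lack its transcript. Plasmacytoid dendritic cells, known as strong producers of type I interferon, were represented by 3 markers that summed to at most 0.0377 CPM in sorted cells and to 0.216 to 4.1 CPM in enriched cells at 0 h.

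Among the 6 receptor genes, Ifnar2 and Il10rb were called lower at 4 h in sorted WT cells and Ifnar1, Ifnar2, Ifngr1 and Ifngr2 at 20 h. Ifnar1 and Ifnar2, the type I receptor, stood at -1.20 and -1.08 at 20 h, with Ifnar1 at 181, 138 and 188 CPM at 0 h and 76.3, 73.6 and 70.5 CPM at 20 h. Ifngr1 was at 181, 222 and 206 CPM at 0 h and 47.7, 47 and 47.8 CPM at 20 h in WT. In Lat-/- cells it was at 185, 234 and 223 CPM at 0 h and 981, 961 and 1212 CPM at 4 h, which was called higher (2.30), and its log2 difference from WT at 20 h was 3.56 (SE 0.16, adjusted p = 2.77e-103). Its Lat-/- libraries were at 661, 562 and 463 CPM at 20 h. Of the regulators, Irf9, Irf1 and Irf7 were called lower and Irf8 higher at 4 h and at 20 h in sorted WT cells. Irf7, the amplifier of type I interferon transcription, stood at -6.12 in WT at 20 h, and at -0.98 in Lat-/- cells, which was not called. The Irf7 libraries were at 113, 124 and 94.1 CPM at 0 h and 1.71, 1.36 and 1.68 CPM at 20 h in WT, and at 65.2, 28.9 and 65.3 CPM at 20 h in Lat-/- cells. Irf9, the partner of Stat2, was higher in Lat-/- than in WT cells at 20 h by 3.05, and Irf1 by 2.69. Of the kinase genes, Jak1 changed by -1.35 in WT at 20 h and Tyk2 by -1.12 at 4 h, and Jak1 was higher in Lat-/- than in WT cells at 20 h by 1.95.

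Of 10 brakes on the pathway, Socs1 was called higher at 4 h in sorted WT cells (36.7, 55 and 54.6 CPM at 0 h and 125, 119.5 and 121 CPM at 4 h, log2 1.32) and not in Lat-/- cells (0.41), and the difference between these changes, -0.91 (SE 0.22, adjusted p = 0.000465), did not pass the fold threshold. Socs3 was called lower in both genotypes, at -2.98 in WT and -1.53 in Lat-/- cells at 4 h. Of 116 further interferon-stimulated genes with reads in sorted cells, 70 were called lower and 6 higher at 4 h in WT, against 9.29% and 8.05% of all genes, and 71 lower and 9 higher at 20 h, against 12.7% and 10.8%. In Lat-/- against WT cells, 54 were called higher and 7 lower at 4 h, against 5.51% and 6.23%, and 66 higher and 9 lower at 20 h, against 12.1% and 12.3%.

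**Figure D4:**
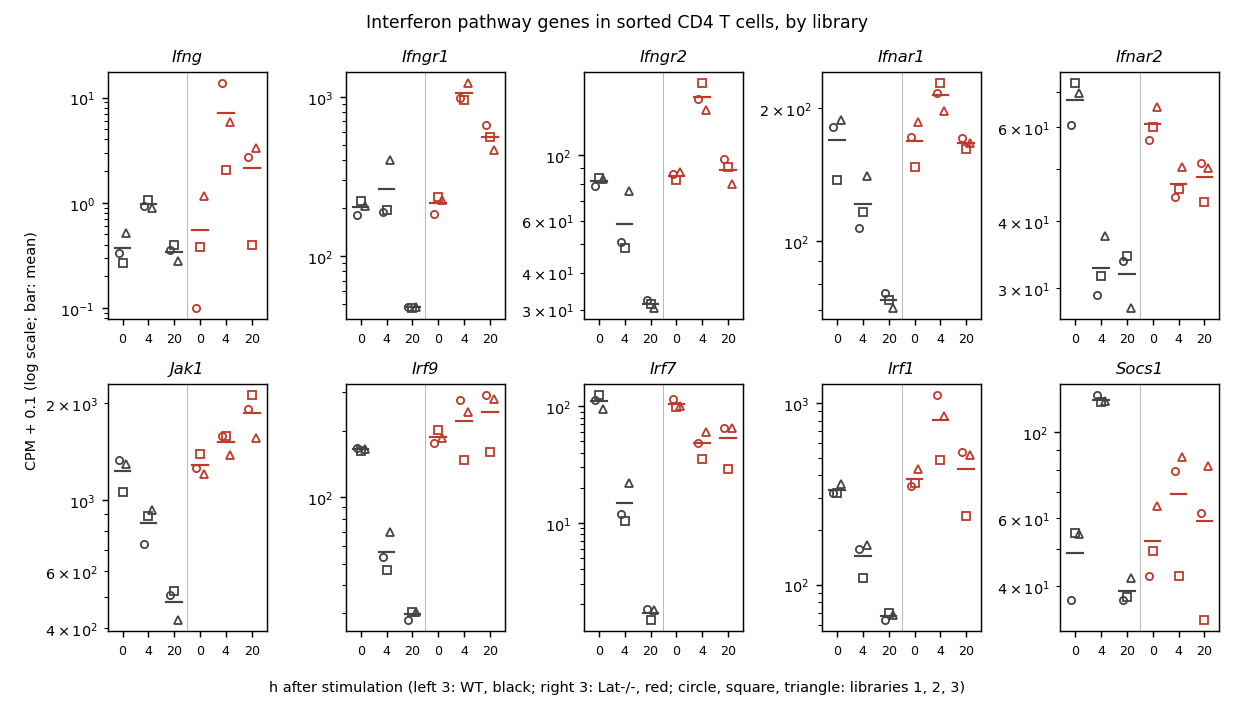
Level of 10 genes of the interferon pathway in each library of sorted cells (CPM + 0.1, log scale) by h after stimulation, WT in black on the left and Lat-/- in red on the right; circles, squares and triangles are libraries 1, 2 and 3 and bars are means of 3. Ifngr1 falls to 47.7, 47 and 47.8 CPM in WT at 20 h and lies above all WT libraries in Lat-/- cells at 4 h and 20 h, while Socs1 rises in WT at 4 h.

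Enriched WT cells, which were compared only within their own experiment, also lost most members and gained some GTPases. At 4 h, 24 members were called lower, against 11.1% of all genes, and 2 higher (Gbp2 and Irgm2), against 8.24%, with a median log2 fold change of -1.63. At 20 h, 29 were called lower, against 17.3%, and 3 higher (Gbp2, Igtp and Irgm1), against 12.3%, with a median of -2.54. From 4 h to 20 h, 17 fell further, against 12.2%, and 2 rose (Gbp2 and Bst2), against 8.74%. A total of 24 members were called lower at both times in the sorted and in the enriched WT cells, and Trim25 and Ifi35 were called in none of these 4 comparisons. Of members with a mean of at least 50 counts, Oas2, Rsad2 and Rtp4 had the largest log2 falls to 20 h in enriched WT cells. Oas2 had 4, 1 and 1 reads left and Rsad2 had 20, 3 and 2. Rtp4 stood at 42.1, 44.6 and 87.2 CPM at 0 h and 0.507, 0.848 and 1.07 CPM at 20 h. Ifit1 was at 55.4, 56.6 and 98.4 CPM at 0 h, 5.01, 7.2 and 8.8 CPM at 4 h and 5.55, 3.69 and 6.13 CPM at 20 h and Cmpk2 at 24.5, 22.5 and 44.2 CPM at 0 h, 1.04, 1.4 and 2.52 CPM at 4 h and 0.846, 0.553 and 0.419 CPM at 20 h, both lower at 4 h than at 0 h without overlap.

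Gbp2 was lower at 4 h in sorted WT cells and called higher in enriched ones. In enriched WT cells it was at 86, 95.1 and 109.6 CPM at 0 h, 111, 324 and 503 CPM at 4 h and 457, 668 and 933 CPM at 20 h, so that library 1 stayed close to the 0 h range at 4 h while the other 2 rose above it. The log2 fold change was 1.69 (SE 0.39, adjusted p = 0.000229) at 4 h and 2.82 (SE 0.40, adjusted p = 6.53e-09) at 20 h, against -0.93 and 0.90 in sorted WT cells. The difference between the preparations was not tested. With the replicate number as a block, Irgm2 at 4 h (log2 0.95) and Irgm1 at 20 h (log2 0.96) fell just under the fold threshold. B cell, myeloid and NK cell markers were higher in enriched than in sorted cells at 0 h and 4 h, and their part in the members' levels was not tested.

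More members fell than rose in the other 3 enriched genotypes also. In Cd5-/- cells, 28 members were called lower and 1 higher at 4 h, against 11.3% and 8.2% of all genes, and 29 lower and 3 higher at 20 h, against 17.5% and 12.5%. In Cd6-/- cells, 19 were called lower and 6 higher at 4 h, against 10.2% and 7.72%, and 27 lower and 4 higher at 20 h, against 16.8% and 11.4%. In Cd5-/-Cd6-/- cells, 19 were called lower and 6 higher at 4 h, against 9.66% and 7.57%, and 28 lower and 3 higher at 20 h, against 18% and 12.3%. The 6 called higher at 4 h were the same genes in Cd6-/- and Cd5-/-Cd6-/- cells, Gbp2, Gbp3, Gbp7, Igtp, Irgm1 and Irgm2. In Cd6-/- cells Gbp2 stood at 3.02 and Irgm1 at 1.67 against 0 h at 4 h, while Cmpk2, Oasl1 and Ifit1 were at -3.32, -2.50 and -2.33 on the log2 scale. In Cd5-/-Cd6-/- cells the same 5 were at 2.80, 1.85, -3.29, -2.47 and -2.46. Across the 4 genotypes, 19 members were lower at both times, and Gbp2, Igtp and Irgm1 were higher at 20 h.

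Directly compared with WT at the same time, 0 of 38 members were called in any of these genotypes by edgeR or DESeq2. In Cd5-/- cells all genes were called at 0.0619% at 0 h, 0.0743% at 4 h and 0.0186% at 20 h, and 0, 3 and 3 members had an unadjusted p under 0.05. In Cd6-/- cells these shares were 0%, 0.0031% and 0.0186%, with 0, 29 and 6 members. In Cd5-/-Cd6-/- cells they were 0.0248%, 0.0434% and 0.0434%, with 1, 19 and 3 members. These shares are of called genes and do not match the member counts, which are by unadjusted p. Of all 32290 genes, those with an unadjusted p under 0.05 numbered 955, 1096 and 723 in Cd5-/- cells at 0 h, 4 h and 20 h. They numbered 707, 885 and 541 in Cd6-/- cells and 594, 891 and 742 in Cd5-/-Cd6-/- cells. The comparisons share their WT libraries, so a WT library that stands apart moves all of them.

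The 4 h comparisons depended on the replicate number. In Cd6-/- against WT cells at 4 h, all 38 fitted differences were above 0, with a median log2 difference of 0.78 and a smallest adjusted p of 0.323. In Cd5-/-Cd6-/- cells all 38 were above 0, with a median of 0.62 and a smallest adjusted p of 0.553, and in Cd5-/- cells 33 were below 0, with a median of -0.18. Gbp2 at 4 h was at 111, 324 and 503 CPM in WT, 109, 503 and 303 CPM in Cd5-/-, 163, 1188 and 1265 CPM in Cd6-/- and 233, 1246 and 798 CPM in Cd5-/-Cd6-/- libraries 1, 2 and 3. The library numbered 1 was the lowest in each genotype, as it was for 35, 31, 36 and 36 of the 38 members in WT, Cd5-/-, Cd6-/- and Cd5-/-Cd6-/- cells, and libraries 2 and 3 of Cd6-/- and Cd5-/-Cd6-/- cells lay above all WT libraries. Isg15 was at 10.1, 13.2 and 17 CPM in WT, 9.13, 23.5 and 22.6 CPM in Cd6-/- and 8.12, 25.5 and 19.2 CPM in Cd5-/-Cd6-/- cells, again lowest in library 1 of each.

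Libraries with the same number deviated together in these comparisons, and within a number the members differed unevenly. Between Cd6-/- and WT libraries numbered 1, 29 of 38 members were higher in Cd6-/- cells with a median log2 difference of 0.213, between those numbered 2 it was 38 with a median of 1.06, and between those numbered 3 it was 35 with a median of 0.756. Between Cd5-/-Cd6-/- and WT libraries it was 30 with 0.233, 38 with 1.11 and 29 with 0.189. With the number as a block, Gbp2 (log2 1.41, adjusted p = 0.0165), Gbp3 (1.08, adjusted p = 0.017) and Samhd1 (1.01, adjusted p = 0.0415) were called higher in Cd6-/- cells at 4 h, against 0.0557% of all genes, and Gbp2 (1.26, adjusted p = 0.042) in Cd5-/-Cd6-/- cells, against 0.0774%. Without all libraries numbered 1, 2 or 3, the called members were 11, 3 and 10 in Cd6-/- cells, against 0.274%, 0.0845% and 0.218% of genes, and 2, 0 and 12 in Cd5-/-Cd6-/- cells, against 0.332%, 0.0487% and 0.343%. Without the single Cd6-/- library 1 of 4 h, 21 members were called in Cd6-/- cells, against 0.308% of genes, and without the single Cd5-/-Cd6-/- library 1 of 4 h, 9 were called in Cd5-/-Cd6-/- cells, against 0.227%. Without WT library 3 of 4 h, 5 and 3 were called, against 0.0993% and 0.0993%. Leaving out any other single 4 h library of the groups compared left 0 called.

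Ifng followed the same numbers. At 4 h it was at 2.11, 3.52 and 6.07 CPM in WT, 1.77, 16.3 and 12.1 CPM in Cd6-/- and 3.38, 16.2 and 9.34 CPM in Cd5-/-Cd6-/- libraries 1, 2 and 3, lowest in library 1 of each. The summed NK cell markers in these libraries were 13.2, 27.5 and 24.6 CPM in WT, 12.3, 26.7 and 47.6 CPM in Cd6-/- and 23.5, 46.5 and 24.3 CPM in Cd5-/-Cd6-/- cells. The summed myeloid markers were 14.6, 21.4 and 23.9 CPM in WT, 12, 28.2 and 39.9 CPM in Cd6-/- and 11.5, 40.3 and 23.8 CPM in Cd5-/-Cd6-/- cells. The libraries numbered 1 were the lowest of their genotype for both marker sums. The summed erythroid markers were 1556, 841 and 908 CPM in WT, 714, 1559 and 1557 CPM in Cd6-/- and 811, 3147 and 1799 CPM in Cd5-/-Cd6-/- cells, below WT in number 1 and above it in numbers 2 and 3. The part of these markers in the members' levels was not tested.

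**Figure D5:**
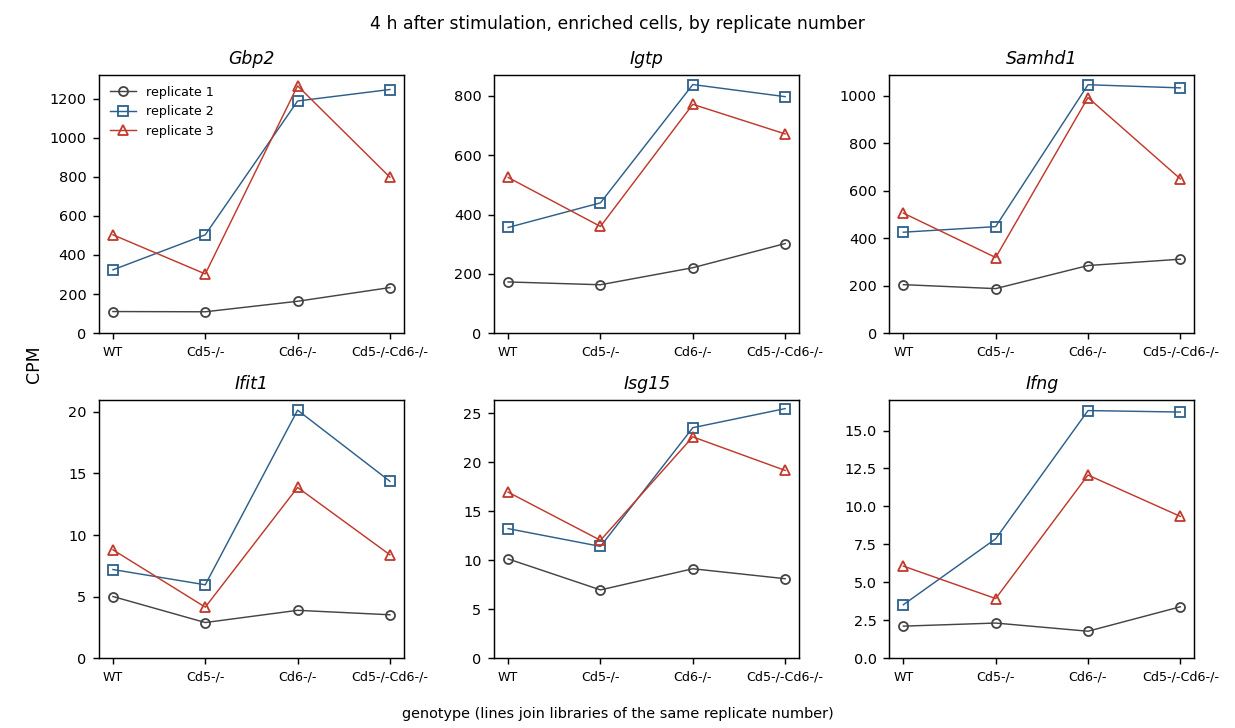
Level of 5 members and of Ifng (CPM, linear axis from 0) at 4 h in enriched cells of the 4 genotypes on the horizontal axis; lines join libraries with the same replicate number, 1 in black circles, 2 in blue squares and 3 in red triangles. Replicate 1 lies low in all genotypes, while in replicates 2 and 3 the Cd6-/- and Cd5-/-Cd6-/- libraries lie above WT for Gbp2, at 163, 1188 and 1265 CPM in Cd6-/- cells.

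At 20 h the members' median differences from WT were closer to 0 than at 4 h in all 3 genotypes. Of the 38 fitted differences at 20 h, 36 were above 0 in Cd6-/-, 24 in Cd5-/-Cd6-/- and 12 in Cd5-/- cells. Ifng at 20 h stood above WT by 1.70 in Cd6-/- and 2.19 in Cd5-/-Cd6-/- cells on the log2 scale, neither called. Gbp2 was at 457, 668 and 933 CPM in WT, 676, 1193 and 1126 CPM in Cd6-/- and 447, 1036 and 830.4 CPM in Cd5-/-Cd6-/- cells, with log2 differences from WT of 0.54 (SE 0.38, adjusted p = 1) and 0.17 (SE 0.37, adjusted p = 1). The members' median log2 difference from WT at 20 h was 0.38 in Cd6-/-, 0.1 in Cd5-/-Cd6-/- and -0.13 in Cd5-/- cells, and at 0 h it was -0.01, -0.18 and 0.14.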

How the data were processed

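RNA from 54 libraries of naive CD4 T cells was sequenced with a stranded mRNA kit in single 50-base reads. The authors aligned them to the mouse genome (GRCm38, mm10) with STAR, after base calling with bcl2fastq 2.17.1.14 per the labels, counted reads per gene with featureCounts, and deposited raw counts, 1 table per experiment. The annotation release is not given in the sources used here. The counts were used as deposited, and each experiment was fitted alone.

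Genes without any read in an experiment were dropped (minimum total count 1), library sizes were scaled by TMM, and all groups of an experiment entered 1 model in edgeR 4.0.16 (R 4.3.3; quasi-likelihood test, SE from the log2 fold change and its F). A change was called at more than 2-fold with a Benjamini-Hochberg adjusted p under 0.05. The procedure was tested on simulated counts with 200 changed genes per experiment. The members, the pathway and marker lists and the rule for naming genes (18 members always given per library, and up to 3 per direction and comparison with a mean of at least 50 counts) were chosen with earlier results of these data known. RPKM used the exon length in the count tables. Nothing says that the 3 libraries of a group came from separate mice, so p-values measure the spread between these libraries.

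Groups share replicate numbers. The correlation of deviations from group means between libraries of equal number was over 0.1 for all 3 pairs in Cd6-/- against WT at 4 h (0.276, 0.171 and 0.204) and in Cd5-/-Cd6-/- against WT at 4 h (0.238, 0.362 and 0.336), but not in Lat-/- against WT at 4 h (0.126, 0.00143 and 0.328) or 20 h (0.0982, 0.0261 and 0.161). Other comparisons also had all 3 pairs over 0.1, among them enriched WT cells at 4 h against 0 h (0.208, 0.457 and 0.42). Lat-/- against WT cells at 0 h was another (0.217, 0.276 and 0.329). Of all pairs of equal number from different groups, 145 of 198 in enriched and 15 of 45 in sorted cells were over 0.1. The main model had no term for the number. Any such pairing comes from the data, not from the labels. Alternatives were DESeq2 1.42.0, RLE factors, library totals, a filter on low counts, a fit on the compared groups alone, the replicate number as a block, leaving out replicates or doubtful libraries, and adjusted p alone. One item of the pathway list is not reported here.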

Additional observations from a re-analysis of the deposited data

Results flagged for a closer look

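The change from 0 h differed between Lat-/- and WT sorted cells, by the interaction of genotype and time in edgeR, for 28 members at 4 h and 34 at 20 h. At 4 h the named members with the largest log2 differences of the change, Lat-/- minus WT, were Gbp2 (2.81), Ifit3 (2.71) and Oasl2 (2.68). At 20 h they were Oasl2 (6.60), Rtp4 (5.64) and Rsad2 (5.23), and the value of Rsad2 depends on the fit because its WT libraries had 0, 2 and 2 reads at 20 h. In Lat-/- cells Gbp2 and Oasl2 were lowest in the Lat-/- library numbered 2 at 4 h and 20 h.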

How the results depend on the processing

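No alternative reversed a direction: of the counts of called members, 308 stayed within 1.5 times and 22 moved, and of single members 83 values lost their call and 4101 did not. All but 1 of the moved counts were in comparisons with 0 called members. With the replicate number as a block, which paired libraries in these comparisons, 3 members were called in Cd6-/- against WT cells at 4 h and 1 in Cd5-/-Cd6-/- cells. Without the 0 h libraries numbered 2 that go against their labels, these were 5 and 1. With adjusted p alone, 2 members were called in Lat-/- against WT cells at 0 h and 27 between 4 h and 20 h in sorted WT cells. Of all 27780 genes, 443 and 8195 were called in the same way. With replicates left out, the called members ranged from 0 to 21 in Cd6-/- and from 0 to 12 in Cd5-/-Cd6-/- cells against WT at 4 h, from 0 to 2 in both at 20 h, and from 0 to 1 in Cd5-/- cells at 4 h and 20 h. Elsewhere the block moved single members near the fold threshold, such as Irgm2 and Irgm1 in enriched WT cells. The cause was not tested. Depth limits Mx1 in stimulated cells, and Rsad2 and Oas2 in WT cells at 20 h, with at most 20 reads in any such library.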
